A study of Mus musculus with 6 samples.

Results

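Prostate RNA of mice in which both copies of Trp53 carried the R270H mutation was compared with prostate RNA of wildtype mice, all irradiated. The comparison rests on 4 of the 6 mice sequenced in the study, chosen by genotype alone: homozygous mice 47 and 49 (Trp53R270H/R270H) and wildtype mice 39 and 41 (Trp53+/+), where the numbers are those of the animals. Each mouse had values for 47719 gene identifiers, of which 13794 reached an average FPKM of 1 across these 4 mice and were tested. FPKM counts sequenced fragments per length of transcript and per number of fragments mapped, so that levels can be compared between genes.

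All mice were of strain B6.129S4-Trp53tm3.1Tyj/J, about 3 months old, and had received 5 Gy of whole body irradiation 6 h before the prostate was taken. The wildtype controls were irradiated in the same way, so the values describe genotype within irradiated tissue and hold no unirradiated reference. The 2 heterozygous mice of the study (37 and 40, Trp53R270H/+) entered the statistical fit, where they help to estimate the spread between mice of a genotype, and their values are given beside some genes. The genotype was that of the whole animal, as found by PCR, and the tissue was a whole prostate holding several cell types. In such bulk tissue, fewer cells of a type and less RNA per cell cannot be told apart.

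Trp53 encodes p53, a transcription factor that is stabilized when DNA is broken and then switches on genes for cell cycle arrest, apoptosis, repair and its own degradation. It binds DNA as a tetramer through a central domain, and the response element it recognizes is made of paired decamers. R270H exchanges an arginine of that domain which touches DNA, and such contact mutants are known for weak binding to the usual response elements and, in some settings, for activities of their own. In the prostate, radiation damage and p53 act in a secretory luminal epithelium that depends on androgen and is surrounded by basal cells, smooth muscle and connective tissue.

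The codon that is changed is shown first because all comparisons turn on it. In GRCm38 the gene ENSMUSG00000059552 (Trp53) occupies the plus strand of chromosome 11 from 69580359 to 69591873. In the reference transcript of 390 codons, codon 270 is in exon 8 of 11, at chr11:69589607-69589609. The reference, wildtype stretch at chr11:69589577-69589639 is printed 5′ to 3′ with the codon for arginine 270 in capitals.
Trp53, codon 270: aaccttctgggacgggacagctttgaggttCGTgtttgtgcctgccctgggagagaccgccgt
The FPKM of Trp53 itself was 17.3 and 21.4 in the wildtype mice and 20.8 and 18.3 in the homozygous mice, which overlapped (log2 fold change 0.02, standard error 0.15, adjusted p = 0.957 from limma). Leaving out wildtype mouse 39 or homozygous mouse 47 turned the sign of this small difference, to -0.13 and -0.07. Gene-level FPKM sums the transcripts of both alleles and does not check the genotype.

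Before the results, the libraries need a description, since homozygous mouse 47 stood apart. Probasin (Pbsn), a secreted protein of the mouse prostate, had an FPKM of 11192 and 11512 in the wildtype mice, 257 in mouse 47 and 7329 in mouse 49. Prostate tissue was thus recognizable in each mouse by Pbsn, Hoxb13 (154 and 136 against 76.98 and 105) and Krt8 (163 and 189 against 179 and 134), with far less Pbsn in mouse 47. The summed FPKM of 15 luminal and secretory markers was 87885 and 67699 in the wildtype mice, 55572 in mouse 47 and 46585 in mouse 49. Pate4, which is also counted among the seminal vesicle markers, gave 125 and 3522 of these sums in the wildtype mice, 16862 in mouse 47 and 4895 in mouse 49. The order of mice 47 and 49 in this sum rested on Pate4. Sbp gave 19587 in wildtype mouse 41 and was listed at 0 in the other compared mice. Markers of skeletal muscle and of the seminal vesicle, neighbours of the prostate, were also present and differed between mice. The summed FPKM of 29 skeletal muscle markers was 2816 and 3981 in the wildtype, 7450 and 7828 in the heterozygous and 9196 and 7953 in the homozygous mice. The 10 seminal vesicle markers summed to 3749 in wildtype mouse 39, to 49740 in wildtype mouse 41, to 65214 in homozygous mouse 47 and to 35715 in homozygous mouse 49. The relative number of fragments, read from the spacing of the lowest values, lay between 0.785 in mouse 47 and 1.07 in mouse 49 when mouse 39 is set to 1. Pearson's r across the tested genes was 0.936 within the wildtype pair and 0.914 within the homozygous pair, a description across genes that are not independent replicates.

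With limma, 53 of the 13794 tested genes had an adjusted p-value under 0.05 between homozygous and wildtype mice, which is 0.384% of those tested. Of these, 36 were lower in the homozygous mice (0.261%) and 17 were higher (0.123%). By the looser criterion of an unadjusted p-value under 0.05 with at least a 1.5-fold difference, 614 genes were lower (4.45%) and 905 higher (6.56%), which is 11% of the tested genes together. An unadjusted p-value under 0.05 alone was reached by 2486 genes (18%). The median log2 fold change over all tested genes was -0.04, and changes are given on the log2(FPKM + 0.1) scale, homozygous minus wildtype, which understates those of low genes. Both homozygous values lay below both wildtype values in 28.8% of the tested genes and above them in 21.3%. The number of genes passing adjustment depended strongly on single mice, since it was 19 without wildtype mouse 39, 82 without wildtype mouse 41, 23 without homozygous mouse 47 and 104 without homozygous mouse 49. It was 4 and 5 without heterozygous mouse 37 or 40. With quantile normalization the split was 21 higher and 22 lower, that is 48.8% higher in place of 32.1%. The 53 genes kept their direction in each alternative in which they were tested. Where pairs of values are set against each other in what follows, they are the FPKM of wildtype mice 39 and 41 and then of homozygous mice 47 and 49. An exact permutation test of 2 mice against 2 cannot give a two-sided p below 0.333, so single genes rest on the fit across all genes.

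**Figure D1:**
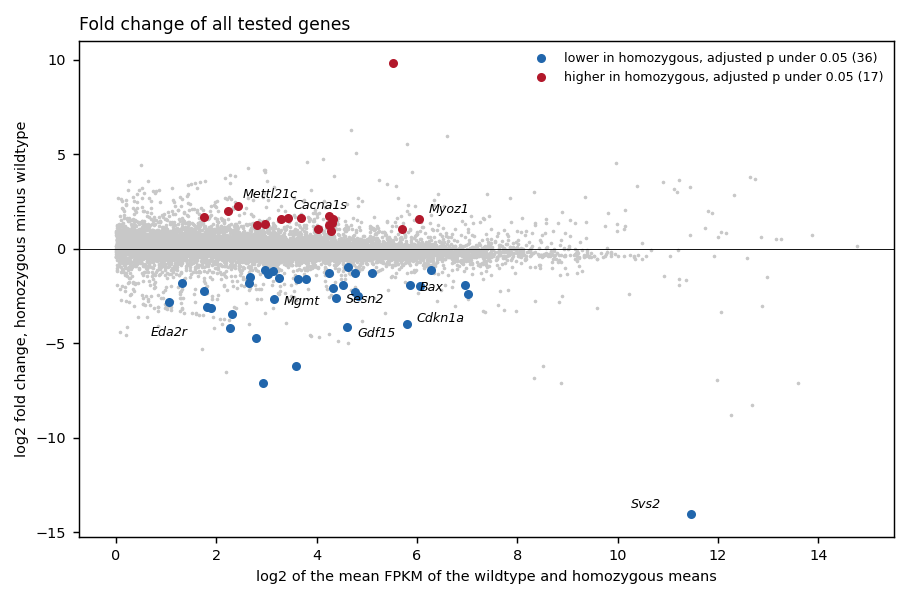
Each point is a tested gene, with the log2 of its mean FPKM on the horizontal axis and its homozygous minus wildtype log2 difference on the vertical axis. The 36 genes called lower (blue) reach further from 0 than most of the 17 called higher (red), and Svs2 and the unlabelled point at the top are genes listed at 0 in both mice of a genotype.

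Familiar targets of p53 made up 19 of the 36 genes lower in homozygous mice. Of 83 genes collected in 6 lists of p53 targets, 77 were tested, 19 were lower with an adjusted p-value under 0.05 and 0 were higher, against 0.261% and 0.123% of all tested genes. The median log2 fold change of the 77 was -0.58. By the looser criterion 37 were lower (4.45% of all tested genes) and 3 higher (6.56%). Instead of 19, the number lower was 4 without wildtype mouse 39 (0.13% of all genes called lower in that fit), 11 without wildtype mouse 41 (0.232%), 6 without homozygous mouse 47 (0.0797%) and 11 without homozygous mouse 49 (0.573%). It was 2 without heterozygous mouse 37 (0.0217%), 2 without heterozygous mouse 40 (0.029%) and 2 when the fit held the 4 compared mice alone (0.0217%). The median stayed between -0.82 and -0.55 when any wildtype or homozygous mouse was left out. Some of the listed genes had been named by the study from these samples, so the count is not independent evidence of their direction.

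Promoters of the called genes were searched for the decamer of the p53 response element, since p53 acts through it. The window ran from 250 bases before to 50 after each start in RefSeq's table for GRCm38.p6, both strands were read, and the decamer was 3 purines, C, A or T at 2 positions, G and 3 pyrimidines. Of 29 genes called lower with a promoter in the table, 9 held the decamer (31.0%), against 847 of 10040 tested genes (8.44%) and 1 of 8 genes called higher. A full site, meaning 2 decamers at most 13 bases apart with at most 1 mismatch, stood in 4 of the 29 (13.8%) and in 0.647% of the tested genes. The 4 genes were Cdkn1a, Ccng1, Gtse1 and 1700007K13Rik. Of the 9 genes with a decamer, Cdkn1a, Ccng1, Gtse1, Bax, Mdm2, Aen and Ei24 belonged to the lists of known p53 targets, and 1700007K13Rik and Exoc4 did not. The share among genes called lower is thus largely that of known targets and is no independent support. A match describes letters in this window only and is no proof of binding. Ei24 and Exoc4 were also among the 9 genes and are not printed. The sequences of the other 7 are shown 5′ to 3′ along the gene's strand, with each decamer in capitals.
Cdkn1a, chr17:29090892-29090951, plus strand: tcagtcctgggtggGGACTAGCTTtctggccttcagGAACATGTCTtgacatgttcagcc
Ccng1, chr11:40755437-40755496, minus strand: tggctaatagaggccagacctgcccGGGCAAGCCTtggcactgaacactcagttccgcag
Gtse1, chr15:85859945-85859974, plus strand: gagcaagttgGGGCTTGCCTctgacttgcc
1700007K13Rik, chr2:28466381-28466440, minus strand: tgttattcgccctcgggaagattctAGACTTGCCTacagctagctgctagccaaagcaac
1700007K13Rik, chr2:28466275-28466304, minus strand: gacttgatctGGGCTAGTTTcctgcgggag
Bax, chr7:45467065-45467124, minus strand: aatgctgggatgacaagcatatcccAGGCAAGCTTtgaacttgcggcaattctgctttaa
Mdm2, chr10:117710910-117710969, minus strand: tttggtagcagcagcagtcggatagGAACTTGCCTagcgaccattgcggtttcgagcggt
Aen, chr7:78895927-78895956, plus strand: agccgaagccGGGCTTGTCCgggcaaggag
In the Cdkn1a window the first decamer began 73 bases and the second 51 bases before the start. Sesn2 and Phlda3, which fell as far as several of these genes, held no decamer in this window.

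The targets that halt the cell cycle fell furthest in Cdkn1a, which encodes p21, the inhibitor of cyclin-dependent kinases through which p53 stops cells in G1. Cdkn1a (ENSMUSG00000023067, chromosome 17 from 29090976 to 29100727) had an FPKM of 109 and 101 in the wildtype, 40.5 and 41.4 in the heterozygous and 6.70 and 6.17 in the homozygous mice. The genotypes did not overlap and the mice of a genotype lay close together, so that the homozygous level was 16.1-fold lower (log2 fold change -4.00, standard error 0.11, adjusted p = 0.000734 from limma). Its adjusted p-value was under 0.05 in each of 15 alternatives. Cdkn1a was also the single gene called lower between homozygous and heterozygous mice (log2 fold change -2.65, adjusted p = 0.00390 from limma), which is 0.00725% of the tested genes. Gtse1, whose microtubule-bound product acts in G2 and restrains p53, had 6.96 and 5.76 in wildtype and 0.566 and 0.738 in homozygous mice (log2 fold change -3.11, standard error 0.23, adjusted p = 0.0177 from limma). Ccng1, cyclin G1, was among the more abundant targets, with 217 and 179 in wildtype and 50.1 and 54.2 in homozygous mice (log2 fold change -1.91, standard error 0.17, adjusted p = 0.0294 from limma). Zmat3, an RNA-binding zinc finger protein, had 15.4 and 13.1 against 4.67 and 5.02 (log2 fold change -1.53, standard error 0.14, adjusted p = 0.0294 from limma). In all 4 genes both homozygous mice were below both wildtype mice.

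In total 4 of the 10 tested arrest genes passed adjustment, all lower (0.261% of all tested genes), and 7 were lower by the looser criterion (4.45%), with a median of -1.04. Rprm, which halts cells in G2, had 6.71 and 7.36 in wildtype and 3.49 and 3.26 in homozygous mice (log2 fold change -1.04, adjusted p = 0.0864 from limma). Plk2, a stress-induced polo-like kinase, had 14.7 and 9.34 against 5.78 and 5.47 (log2 fold change -1.04, adjusted p = 0.150 from limma). These stayed above the threshold of the adjusted test, as did Btg2, an antiproliferative gene with 82.7 and 53.9 against 36.2 and 32.7. Sfn, which encodes 14-3-3 sigma, overlapped between the genotypes at 8.89 and 15.1 against 15.6 and 13.1.

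Among the apoptosis targets no member passed the test as higher and several were lower, with 6 of 13 past adjustment (0.261% of all tested genes), 9 by the looser criterion (4.45%) and 12 with both homozygous values below both wildtype values (28.8%). Bax, which opens the outer membrane of mitochondria, had an FPKM of 92.5 and 90.4 in the wildtype and 26.8 and 21.4 in the homozygous mice (log2 fold change -1.93, standard error 0.15, adjusted p = 0.0204 from limma). Bbc3 encodes Puma, a BH3-only protein that sets Bax and its relatives free, and had 22.8 and 18.6 against 6.87 and 6.66 (log2 fold change -1.59, standard error 0.15, adjusted p = 0.0314 from limma). Tnfrsf10b, the death receptor for Trail, was expressed at a lower level and had 6.26 and 5.07 against 1.19 and 1.05 (log2 fold change -2.24, standard error 0.22, adjusted p = 0.0362 from limma). All 3 were lower in both homozygous mice.

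Aen, a nuclease that digests DNA in dying cells, fell furthest of this group, from 51.5 and 45.4 to 8.96 and 8.12 (log2 fold change -2.49, standard error 0.12, adjusted p = 0.00464 from limma). Trp53inp1, which binds p53 and acts in autophagy and cell death, had 35.3 and 29.2 against 6.23 and 9.27 (log2 fold change -2.07, standard error 0.24, adjusted p = 0.0467 from limma). Ei24, an endoplasmic reticulum protein first found as a p53-induced gene, had 115 and 98.2 against 49.9 and 46.4 (log2 fold change -1.14, standard error 0.13, adjusted p = 0.0467 from limma). Apaf1, the scaffold of the apoptosome, had 6.32 and 7.03 against 2.58 and 3.73 and did not pass adjustment (log2 fold change -1.08, standard error 0.33, adjusted p = 0.207 from limma). Siva1 did not pass either, with 29.1 and 32.7 against 16.3 and 15.6 (log2 fold change -0.95, adjusted p = 0.0864 from limma). Fas, the receptor for Fas ligand, differed little, with 13.7 and 15.6 in wildtype and 12.97 and 12.2 in homozygous mice (log2 fold change -0.22, adjusted p = 0.523 from limma).

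**Figure D2:**
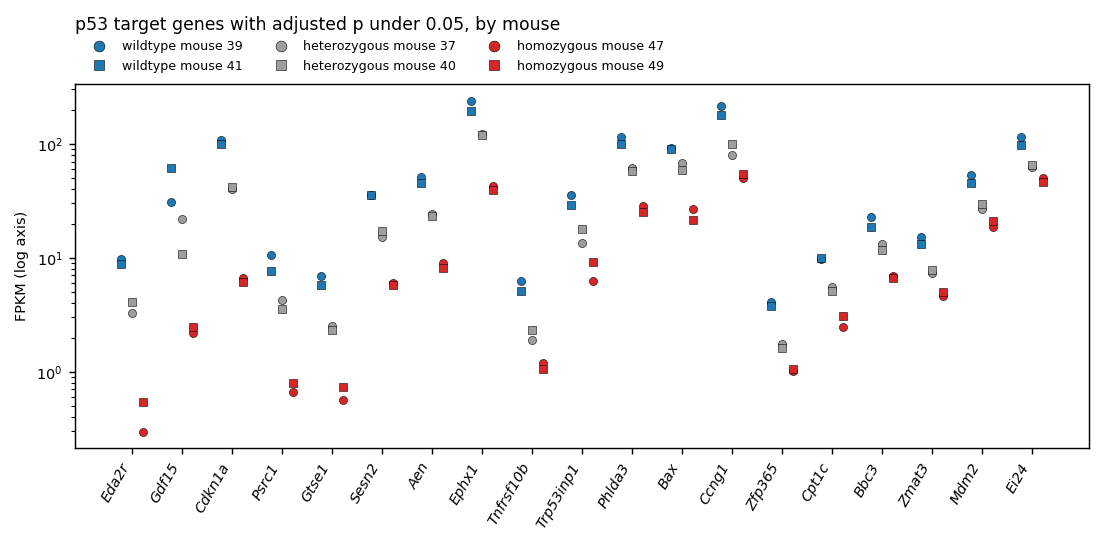
FPKM on a log axis for the 19 genes of the p53 lists with an adjusted p-value under 0.05, ordered by log2 fold change, with wildtype mice in blue, heterozygous mice in grey and homozygous mice in red (circles and squares are single mice). Both homozygous mice lie below both wildtype mice in each gene, with the heterozygous mice between them in all 19.

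In the feedback circuit of p53, Mdm2 fell and the other regulators did not pass the test. Mdm2, the ubiquitin ligase that p53 induces and that in turn sends p53 to the proteasome, had 53.02 and 45.4 in the wildtype and 18.8 and 21.1 in the homozygous mice, 2.46-fold lower (log2 fold change -1.30, standard error 0.14, adjusted p = 0.0396 from limma). Its partner Mdm4 had 22.9 and 20.7 against 15.2 and 18.8 (log2 fold change -0.37, adjusted p = 0.373 from limma), and the phosphatase Ppm1d had 7.74 and 6.05 against 4.97 and 5.34 (log2 fold change -0.40, adjusted p = 0.279 from limma). In the same list, Ppm1j, a related phosphatase, was higher by the looser criterion only, at 1.15 and 2.09 against 4.17 and 3.96 (log2 fold change 1.33, standard error 0.29, adjusted p = 0.143 from limma). Trp63, the p53 relative of basal cells, was likewise higher by that criterion, at 3.19 and 3.86 against 5.54 and 5.94 (log2 fold change 0.69, standard error 0.16, adjusted p = 0.153 from limma). Of the 8 tested genes of this list, 1 passed adjustment (0.384% of all tested genes).

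Among the metabolic and mTOR targets, 2 of 16 passed adjustment, both lower (0.261% of all tested genes), and the median was -0.39. Sesn2, a stress sensor that restrains mTORC1, had 35.9 and 35.7 in the wildtype, 15.1 and 17.1 in the heterozygous and 5.98 and 5.74 in the homozygous mice (log2 fold change -2.59, standard error 0.12, adjusted p = 0.00389 from limma), and its adjusted p-value was under 0.05 in each of 15 alternatives. Its relative Sesn1 overlapped between the genotypes, at 12.4 and 9.03 against 11.8 and 13.7 (log2 fold change 0.27, adjusted p = 0.483 from limma). Cpt1c, a carnitine palmitoyltransferase of the endoplasmic reticulum, had 9.68 and 10 against 2.48 and 3.07 (log2 fold change -1.80, standard error 0.16, adjusted p = 0.0294 from limma). Ddit4, another inhibitor of mTORC1 signalling, had 57.8 and 79.5 against 35.9 and 27.6 and passed the looser criterion only (log2 fold change -1.10, standard error 0.21, adjusted p = 0.120 from limma). Fuca1, a lysosomal fucosidase, did so too, with 173 and 174 against 80.1 and 119 (log2 fold change -0.83, standard error 0.21, adjusted p = 0.173 from limma). Tigar, which lowers glycolytic flux, went the other way at 3.63 and 2.67 against 4.61 and 4.93 (log2 fold change 0.60, standard error 0.22, adjusted p = 0.247 from limma). Both homozygous values lay below both wildtype values in 11 of the 16 (28.8% of all tested genes) and above them in 2 (21.3%), and 3 overlapped.

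Of 7 targets for excision repair and nucleotide supply, 0 passed adjustment with limma and 2 were lower by the looser criterion (4.45% of all tested genes). Both homozygous values lay below both wildtype values in 2 (28.8%), and 5 overlapped between the genotypes. Xpc, the damage sensor of nucleotide excision repair, had 6.78 and 6.06 in wildtype and 6.92 and 6.55 in homozygous mice (log2 fold change 0.07, adjusted p = 0.807 from limma). Ddb2 had 7.90 and 9.38 against 10.4 and 7.81, and Rrm2b, the p53-induced subunit of ribonucleotide reductase, had 8.495 and 6.28 against 6.71 and 9.47. Pcna, the sliding clamp, differed little, with 17.9 and 18.9 against 18.9 and 18.9 (log2 fold change 0.04, standard error 0.11). The members below in both homozygous mice were the polymerase gene Polk, at 9.24 and 6.18 against 2.87 and 2.53 (log2 fold change -1.45, standard error 0.26, adjusted p = 0.110 from limma), and an endonuclease gene, Ercc5, at 11.7 and 8.80 against 6.19 and 6.50 (log2 fold change -0.67, standard error 0.17, adjusted p = 0.169 from limma). The difference between this list and the others was not tested.

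Of 23 other radiation-responsive p53 targets, 6 passed adjustment, all lower (0.261% of all tested genes), 14 were lower by the looser criterion (4.45%), and the median was -0.88. Eda2r, a receptor for ectodysplasin encoded on chromosome X, had 9.83 and 8.76 in the wildtype mice and 0.299 and 0.544 in the homozygous mice (log2 fold change -4.21, standard error 0.29, adjusted p = 0.0126 from limma). Gdf15, a stress cytokine that acts on the hindbrain to lower food intake, had 30.8 and 61.8 against 2.20 and 2.48 (log2 fold change -4.17, standard error 0.44, adjusted p = 0.0396 from limma). The wildtype pair of Gdf15 differed between the animals, yet both lay far above the homozygous pair. Psrc1, a spindle protein, had 10.7 and 7.66 against 0.660 and 0.791 (log2 fold change -3.47, standard error 0.23, adjusted p = 0.0125 from limma).

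Ephx1, microsomal epoxide hydrolase, was the most abundant of this group past adjustment, with 239 and 194 in the wildtype and 42.9 and 39.5 in the homozygous mice (log2 fold change -2.39, standard error 0.15, adjusted p = 0.0116 from limma). Phlda3, which competes with Akt for membrane lipids, had 115 and 100.3 against 28.6 and 25.0 (log2 fold change -2.0, standard error 0.13, adjusted p = 0.0125 from limma), and Zfp365 had 4.10 and 3.80 against 1.01 and 1.06 (log2 fold change -1.83, standard error 0.21, adjusted p = 0.0467 from limma). Lif, a cytokine of the interleukin-6 family, showed one of the larger differences of the list, at 2.77 and 2.73 against 0.410 and 0.309, but missed the threshold (log2 fold change -2.64, standard error 0.34, adjusted p = 0.0579 from limma). Ckap2, a spindle protein with 2.53 and 2.01 against 0.612 and 0.633, missed it as well (log2 fold change -1.70, standard error 0.34, adjusted p = 0.127 from limma). The receptor tyrosine kinase gene Epha2 overlapped between the genotypes, at 2.29 and 2.93 against 2.26 and 2.82.

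**Figure D3:**
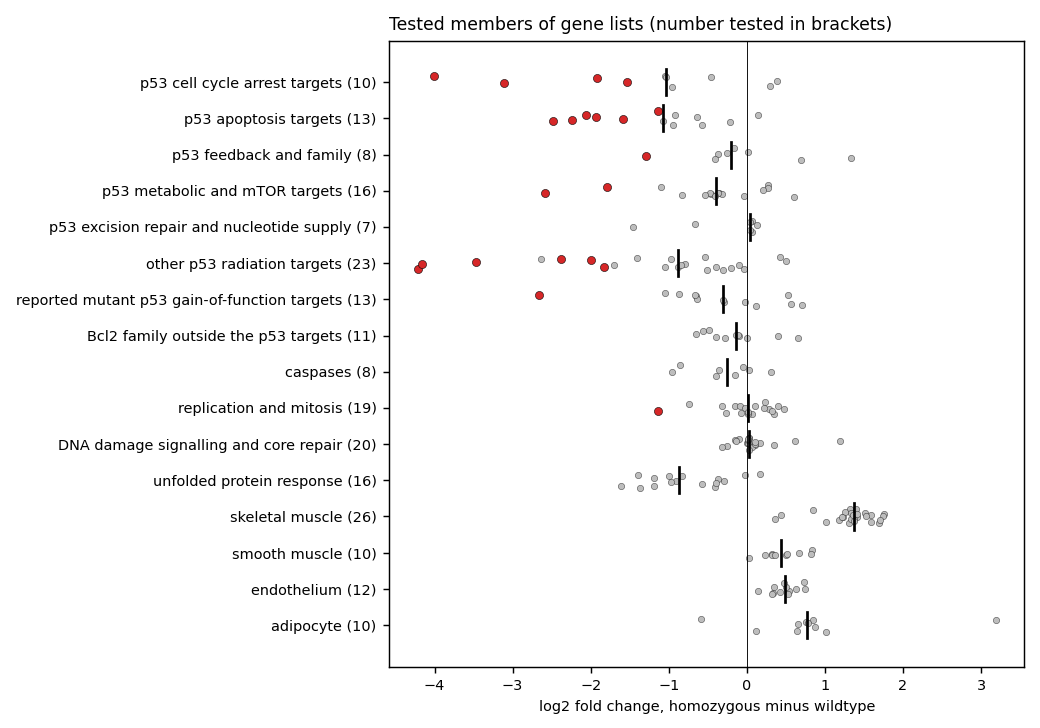
Each point is the log2 fold change, homozygous minus wildtype, of a tested member of the list named at the left, red where the adjusted p-value was under 0.05, with the list's median as a vertical bar. The medians of the arrest and apoptosis targets lie at -1.04 and -1.08, that of the excision repair targets at 0.04 and that of the skeletal muscle markers at 1.37.

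Genes reported elsewhere as targets gained by mutant p53 did not rise as a list. Of 13 tested, 1 passed adjustment and it was lower (0.261% of all tested genes). By the looser criterion 4 were lower (4.45%) and 1 higher (6.56%), and the median was -0.31. The gene past adjustment was Mgmt, the methyltransferase that removes alkyl groups from guanine, with 17.0 and 13.7 in the wildtype, 7.80 and 6.28 in the heterozygous and 2.91 and 1.87 in the homozygous mice (log2 fold change -2.66, standard error 0.25, adjusted p = 0.0320 from limma). Mgmt was also the single member past adjustment among 10 alkylation repair genes, of which Mpg, a glycosylase that cuts out alkylated bases, had 18.7 and 17.4 against 12.9 and 13.2 (log2 fold change -0.46, standard error 0.11, adjusted p = 0.154 from limma). Abcb1a, a multidrug transporter, was higher by the looser criterion (1.69 and 2.12 against 2.90 and 3.40, log2 fold change 0.70, standard error 0.20, adjusted p = 0.192 from limma), while its neighbour Abcb1b was lower (2.45 and 2.42 against 1.20 and 1.38, log2 fold change -0.87, standard error 0.24, adjusted p = 0.185 from limma). These transporters are related in sequence, and whether reads were split between them was not tested.

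Of the 36 genes called lower, 17 belonged to none of the p53 lists. Rrm1, the large subunit of ribonucleotide reductase, was the single member past adjustment among 19 tested replication and mitosis genes, with 11.04 and 10.6 against 5.10 and 4.62 (log2 fold change -1.14, standard error 0.13, adjusted p = 0.0458 from limma). The following were named after their values were seen. 1700007K13Rik had 7.14 and 6.39 in the wildtype, 0.876 and 0.974 in the heterozygous and 0.799 and 0.570 in the homozygous mice, so that the heterozygous pair lay near the homozygous one (log2 fold change -3.14, standard error 0.27, adjusted p = 0.0274 from limma). 9030617O03Rik had 48.9 and 41.6 against 8.28 and 10.01 (log2 fold change -2.30, standard error 0.15, adjusted p = 0.0125 from limma). Aaas, which encodes the nuclear pore protein aladin, had 19.9 and 17.7 against 6.64 and 5.43 (log2 fold change -1.63, standard error 0.15, adjusted p = 0.0320 from limma). Exoc4, a subunit of the exocyst that tethers secretory vesicles, had 40.8 and 36.2 against 15.7 and 16.2 (log2 fold change -1.27, standard error 0.14, adjusted p = 0.0458 from limma). Pgpep1, which removes pyroglutamate from peptides and is the neighbour of Gdf15 on chromosome 8, had 12.9 and 10.8 against 4.45 and 4.59 (log2 fold change -1.36, standard error 0.14, adjusted p = 0.0368 from limma). Homer3 had 12.2 and 12.1 against 5.25 and 5.35, but it overlaps Ddx49 on the other strand, and the use of strand in counting is not given in the sources used here.

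A few called genes were listed at 0 in a genotype, so no fold is given for them. Svs2, a major seminal vesicle protein, had 256 and 11018 in the wildtype mice and was listed at 0 in both homozygous mice, while its relatives Svs1 and Svs6 were highest in homozygous mouse 47. Svs1 had 9.22 and 373 in the wildtype mice, 9136 in mouse 47 and 56.2 in mouse 49. An exact 0 beside such relatives can be a failed estimate. The small nuclear RNA gene Gm24967 was listed at 0 in the wildtype and heterozygous mice and had 71.4 and 111 in the homozygous mice, and the small nucleolar RNA gene Gm22620 had 8.58 and 21.8 in the wildtype mice and was listed at 0 elsewhere. Both lie within other expressed genes (Zcchc11 and Taf1d). When the 141 genes with a 0 in any of the 4 compared mice were left out of the fit, 62 genes passed adjustment, 21 higher and 41 lower.

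Several of the genes higher in homozygous mice are known from striated muscle. Among the 10 largest named rises past adjustment was Cacna1s, the calcium channel of the transverse tubule, with 5.09 and 5.44 in the wildtype, 13.9 and 14.1 in the heterozygous and 17.3 and 15.4 in the homozygous mice (log2 fold change 1.61, standard error 0.12, adjusted p = 0.0177 from limma). Trdn, triadin, which anchors calsequestrin beside the calcium release channel, had 4.72 and 5.06 in wildtype and 15.5 and 13.99 in homozygous mice (log2 fold change 1.57, standard error 0.15, adjusted p = 0.0347 from limma). Jsrp1, a further protein of that junction, had 9.63 and 12.6 against 29.7 and 27.4 (log2 fold change 1.36, standard error 0.16, adjusted p = 0.0483 from limma). Myoz1, a protein of the Z-disc, had 27.7 and 38.4 against 103 and 93.1 (log2 fold change 1.58, standard error 0.18, adjusted p = 0.0467 from limma). Ampd1, the muscle form of AMP deaminase, had 6.28 and 6.13 against 22.1 and 16.8 (log2 fold change 1.62, standard error 0.16, adjusted p = 0.0325 from limma).

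The muscle genes Apobec2, Myo18b and Mettl21c were called higher as well. Mettl21c, a lysine methyltransferase of muscle, had 1.43 and 2.19 against 8.56 and 9.38 (log2 fold change 2.28, standard error 0.23, adjusted p = 0.0362 from limma). Apobec2 had 9.11 and 10.95 against 31.0 and 29.4 (log2 fold change 1.59, standard error 0.13, adjusted p = 0.0247 from limma), Myo18b had 4.28 and 4.75 against 11.9 and 10.3 (log2 fold change 1.28, standard error 0.14, adjusted p = 0.0426 from limma), and Mlf1 had 7.98 and 9.33 against 30.3 and 28.1 (log2 fold change 1.74, standard error 0.20, adjusted p = 0.0467 from limma). Aqp5, a water channel of secretory epithelia, is not known as a muscle gene and rose too, with 10.4 and 11.8 in wildtype, 28.4 and 29.2 in the heterozygous pair and 25.6 and 27.8 in the homozygous pair (log2 fold change 1.26, standard error 0.12, adjusted p = 0.0320 from limma). When the fit held the 4 compared mice alone, 1 gene was called higher (0.00725% of all tested genes). It was Gm24967, so the muscle genes named here were called only with the heterozygous mice in the fit. Of the 17 genes called higher, 1 was called without wildtype mouse 39 (0.00725% of all genes called higher in that fit), 7 without wildtype mouse 41 (0.362%), 1 without homozygous mouse 47 (0.087%) and 4 without homozygous mouse 49 (0.181%).

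The list of skeletal muscle markers lay on the same side. All 26 tested members were higher in both homozygous mice than in both wildtype mice, against 21.3% of all tested genes, and 23 passed the looser criterion, against 6.56%. None of the 26 had an adjusted p-value under 0.05 in limma. Acta1, skeletal muscle actin, had 459.7 and 724 in the wildtype, 1296 and 1305 in the heterozygous and 1532 and 1336 in the homozygous mice (log2 fold change 1.31, standard error 0.29, adjusted p = 0.147 from limma). Pvalb, parvalbumin of fast fibres, had 52.9 and 70.7 against 243 and 173 (log2 fold change 1.74, standard error 0.22, adjusted p = 0.0567 from limma), and Actn3, alpha-actinin of fast fibres, had 26.7 and 45.6 against 129.3 and 108 (log2 fold change 1.76, standard error 0.26, adjusted p = 0.0815 from limma). The summed level rose from 2816 and 3981 in wildtype mice, with the heterozygous mice at 7450 and 7828 near the homozygous ones. The part of skeletal muscle RNA in the tissue taken in the rises named above was not tested. With any wildtype or homozygous mouse left out, between 22 and 24 of the markers passed the looser criterion, where 5.47% of all genes did without wildtype mouse 39, 7.3% without wildtype mouse 41, 5.9% without homozygous mouse 47 and 7.6% without homozygous mouse 49.

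**Figure D4:**
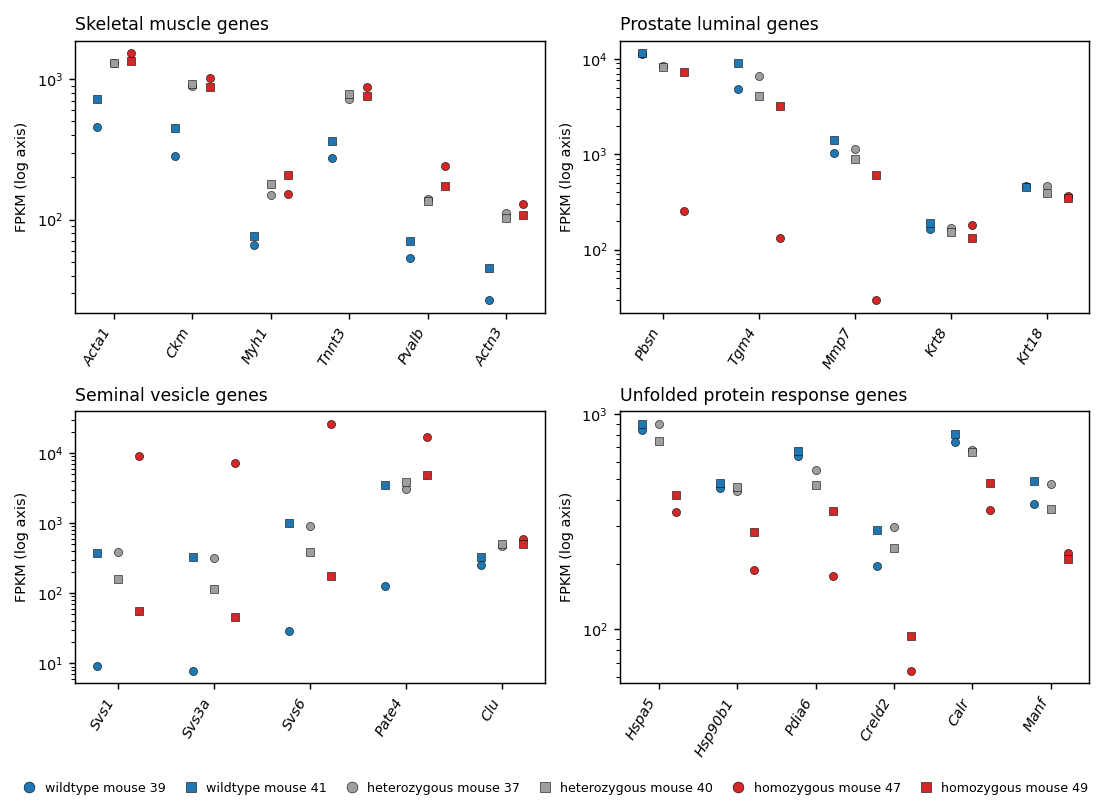
FPKM on a log axis for markers of skeletal muscle, prostate lumen, seminal vesicle and the unfolded protein response, by mouse, with the same colours as in the plot of p53 targets. The muscle genes are higher in all heterozygous and homozygous mice than in the wildtype mice, whereas Pbsn, Tgm4 and Mmp7 are far lower in homozygous mouse 47 than in mouse 49.

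Luminal and secretory genes were lower in homozygous mice by their median, -1.51 over 15 tested genes, but the size depended on single mice. Without mouse 47 the median was -0.49 and 1 gene was lower by the looser criterion in place of 4 (2.8% of all genes), and without mouse 49 the median was -2.53 and 9 genes were lower (8% of all genes). Without wildtype mouse 39 the median was -0.90, without wildtype mouse 41 it was -1.203, and without either heterozygous mouse it stayed at -1.51. Fewer genes met the looser criterion in each of these fits than with all mice. None of the 15 passed adjustment in limma, though 2 did without mouse 49. Tgm4, the transglutaminase of the coagulating gland, had 4819 and 9059.8 in the wildtype mice, 131 in mouse 47 and 3179 in mouse 49 (log2 fold change -3.35, standard error 1.43, adjusted p = 0.294 from limma). Mmp7, matrilysin, had 1036 and 1397 in the wildtype mice, 29.5 in mouse 47 and 613 in mouse 49 (log2 fold change -3.16, standard error 1.31, adjusted p = 0.284 from limma). The luminal keratin Krt18 differed less, with 462 and 458 in wildtype and 367 and 351 in homozygous mice (log2 fold change -0.36, standard error 0.17, adjusted p = 0.337 from limma). Tmprss2, a membrane protease of the luminal cell, had 100.3 and 152 against 37.5 and 72.0 (log2 fold change -1.25, standard error 0.36, adjusted p = 0.195 from limma).

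Chaperones and folding enzymes of the endoplasmic reticulum were lower in both homozygous mice. Of 16 tested genes of the unfolded protein response, 9 were lower by the looser criterion, against 4.45% of all tested genes. In 12 both homozygous values lay below both wildtype values (28.8% of all tested genes), 0 passed adjustment in limma, and the median was -0.87. Creld2 had 196 and 288 in the wildtype and 64.0 and 93.4 in the homozygous mice (log2 fold change -1.62, standard error 0.28, adjusted p = 0.103 from limma). Pdia6, a disulfide isomerase, had 637 and 675 against 176 and 355 (log2 fold change -1.39, standard error 0.34, adjusted p = 0.165 from limma), and it overlaps Atp6v1c2 on the other strand. Hspa5, the chaperone BiP, had 839 and 897 against 348 and 418 (log2 fold change -1.18, standard error 0.21, adjusted p = 0.111 from limma). Both homozygous mice were low in these genes, mouse 47 more so in Hspa5, Pdia6 and Creld2. Without mouse 47 the median was -0.64. The secretory genes Pbsn, Tgm4 and Mmp7 were also lowest in mouse 47, and the part of that difference in these values was not tested. The transcription factors of the response, Xbp1 at 168 and 149.6 against 168 and 144 and Ddit3 at 18.9 and 25.4 against 20.5 and 15.5, overlapped between the genotypes.

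Outside the p53 targets, 0 of the tested caspases and Bcl2 family genes passed adjustment in limma. Of 8 tested caspases, 2 were lower by the looser criterion (4.45% of all tested genes). Among them was Casp6, an executioner caspase, at 33.9 and 33.5 against 13.2 and 26.4 (log2 fold change -0.85, standard error 0.31, adjusted p = 0.246 from limma). In the Bcl2 family, 1 of 11 tested members was higher by the looser criterion (6.56% of all tested genes) and 1 was lower (4.45%). The higher one was Bcl2, which protects cells, at 3.49 and 2.87 against 4.99 and 5.12 (log2 fold change 0.66, standard error 0.16, adjusted p = 0.165 from limma). The lower one was Bcl2l1, which encodes the protective Bcl-xL, at 53.9 and 42.5 against 27.1 and 34.2 (log2 fold change -0.65, standard error 0.18, adjusted p = 0.182 from limma). The other 9 tested members passed neither criterion.

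Replication, mitosis and DNA damage signalling genes showed medians of 0.02 each, over 19 and 20 tested members. With quantile normalization the first median was -0.03. Apart from Rrm1, 0 members of these lists passed either criterion in limma. Top2a, the topoisomerase of dividing cells, had 6.17 and 6.42 in the wildtype and 5.79 and 5.51 in the homozygous mice (log2 fold change -0.15, adjusted p = 0.583 from limma), and Mki67 was under the filter at 0.713 and 0.633 against 0.811 and 1.09. In the damage response, H2afx, the histone variant that is phosphorylated at breaks, had 25.4 and 37.5 against 26.7 and 22.9 (log2 fold change -0.32, adjusted p = 0.492 from limma). Chek2, the kinase that phosphorylates p53, had 8.37 and 8.95 against 8.86 and 5.89, which overlapped.

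Markers of other cell types were measured as well, and among them Svs2 alone passed adjustment in limma. Adipocyte markers had a median of 0.77 with 4 of 10 higher by the looser criterion (6.56% of all tested genes), and Plin1, which coats the lipid droplet, had 13.3 and 8.59 against 19.0 and 24.6 (log2 fold change 1.01, standard error 0.25, adjusted p = 0.164 from limma). Endothelial markers had a median of 0.49 with 3 of 12 higher (6.56%), and Cdh5, the cadherin of endothelial junctions, had 5.54 and 5.15 against 8.05 and 10.01 (log2 fold change 0.74, standard error 0.16, adjusted p = 0.141 from limma). How many adipocyte and endothelial markers met that criterion changed with the mouse left out, so both numbers rest on single mice. With single mice left out, the log2 fold change of Plin1 ran from 0.70 to 1.32 and that of Cdh5 from 0.58 to 0.89. Of 4 tested urothelial markers, Upk1b was lower by the looser criterion (89.8 and 119 against 52.2 and 68.2, log2 fold change -0.79, standard error 0.21, adjusted p = 0.182 from limma), whereas Upk3a had 0.0838 and 6.35 against 15.5 and 10.4 (log2 fold change 3.56, standard error 1.53, adjusted p = 0.296 from limma). Seminal vesicle markers had a median of 2.98 over 10 tested genes, which was 0.80 without wildtype mouse 39, 4.92 without wildtype mouse 41, 0.43 without homozygous mouse 47 and 3.94 without homozygous mouse 49. Over the 7 of them not listed at 0 in any of the 4 mice it was 3.53. Smooth muscle markers had a median of 0.43 with 1 of 10 higher by the looser criterion (6.56%). Macrophage markers overlapped between the genotypes in all 9 tested genes, with mouse 47 low and mouse 49 high, as for Cd68 at 9.56 and 9.66 against 5.49 and 12.1. Over all tested genes, 28.8% lay below and 21.3% above in both homozygous mice, and the rest overlapped. Of 13 lymphocyte markers 4 were tested, and Ighm, the immunoglobulin mu chain, had 104 and 153 in the wildtype mice, 8.88 in mouse 47 and 88.7 in mouse 49 (log2 fold change -2.16, standard error 0.99, adjusted p = 0.319 from limma).

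The heterozygous mice, which carried 1 mutant and 1 wildtype allele, are placed here between the other genotypes. In 34 of the 36 genes called lower, and in all 19 members of the p53 lists, both heterozygous values lay between the homozygous and the wildtype values without overlap. This held for 17.3% of all tested genes with both homozygous values below both wildtype values. For those 19 genes the median log2 difference was -1.04 from wildtype to heterozygous and -1.15 from heterozygous to homozygous mice. For the 17 genes called higher these medians were 1.29 and 0.21, and in 11 of them both heterozygous values lay between the other genotypes without overlap, against 18.1% of all tested genes with both homozygous values above. Whether lower and higher genes differ in this was not tested. Both steps use the same heterozygous mice, and genes were chosen by the sum of the steps. Between homozygous and heterozygous mice, 1 gene was called lower (Cdkn1a) and 1 higher (Gm24967) over all tested genes.

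The chromosomal neighbourhood of Trp53 is described separately, since flanking sequence of another strain can travel with an engineered allele. Within 10 Mb of Trp53, 297 genes were tested and 0 passed adjustment in limma, against 0.384% of all tested genes, while 33 were higher and 17 lower by the looser criterion, 16.8% against 11%. On the rest of chromosome 11, 12.2% of 874 genes met the looser criterion, and 10.8% of 12623 genes on the other chromosomes. The neighbours that met it include Myh4 (52.6 and 111 against 191 and 278) and Eno3 (105 and 156 against 353 and 323), which are members of the muscle list. Of the called genes on chromosome 11, Ccng1 lay 28.8 Mb away.

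Whether the called differences were carried by both homozygous mice was read by fitting each of them alone against the wildtype pair, in which case the lone mouse is assumed to vary like the others. For the 50 called genes not listed at 0 in any of the 4 mice, the direction was the same with mouse 47 alone and with mouse 49 alone. That outcome was fixed in advance, since both homozygous values of each gene lay beyond both wildtype values. The median absolute gap between the log2 fold changes was 0.15 and the largest was 0.69. Cdkn1a was at -3.95 with mouse 47 alone and at -4.06 with mouse 49 alone, and Sesn2 at -2.56 and -2.62. The largest gap belonged to Eda2r, with -4.56 and -3.86. Genes that differ between the homozygous mice enter the spread and are called less easily, so small gaps are in part a result of the selection by test.

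**Figure D5:**
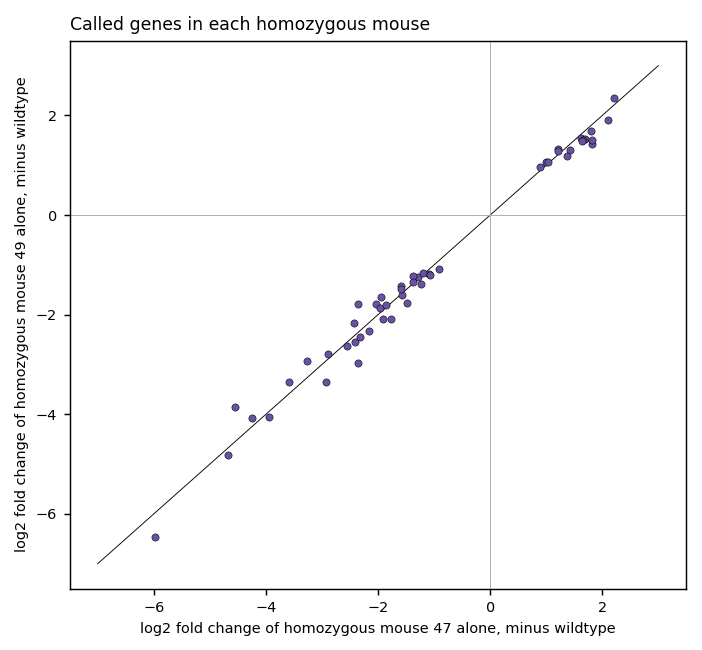
Log2 fold changes of the 50 called genes without a value of 0, from homozygous mouse 47 alone (horizontal) and homozygous mouse 49 alone (vertical), each against the wildtype pair, with the line of equal values. The points follow the line, with a median gap of 0.15.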

How the data were processed

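RNA of whole prostates from 6 irradiated mice, 2 of each genotype, had been sequenced as paired reads on an Illumina HiSeq from stranded, poly(A)-selected libraries made with 100 ng of total RNA. The authors aligned reads to GRCm38 (mm10) with HISAT and quantified genes with Cufflinks, and deposited FPKM per gene for each mouse. Their processing notes also name Cuffnorm and bcl2fastq. Tool versions, gene annotation and the use of strand in counting are not given in the sources used here. FPKM keep no counts, so no counting interval is given.

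Genes whose FPKM averaged 1 or more in the wildtype and homozygous mice were tested on log2(FPKM + 0.1) with limma 3.58.1 in R 4.3.3, with all 6 mice in the fit, moderated variances with a trend, and Benjamini-Hochberg adjustment at 0.05. A looser criterion, an unadjusted limma p-value under 0.05 with at least a 1.5-fold difference, was modelled on the limits of the study, which used an ANOVA over all genotypes. The mice are separate animals, and p-values measure only the spread between these samples. For 124 symbols with several identifiers, the one with the highest mean was used. Positions came from GENCODE M21 (GRCm38), which held 47305 of 47719 identifiers, and promoters from RefSeq (GRCm38.p6). The fit was tested on simulated data. Named genes were Trp53, Mgmt and Acta1, the called members of each list with the largest differences among its other members, and the 10 largest called rises and falls among genes whose symbol is not a predicted or RIKEN identifier. Other genes in the text were chosen after their values were seen, among them list members given because they did not differ. The members and lists were chosen with earlier results of these data known. Alternatives were pseudocounts, filters, scalings, fits without a variance trend or without heterozygous mice, and each mouse left out. A search of wider windows around each start was not run, since no genome sequence was used here. Some genes are not reported here.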

Additional observations from a re-analysis of the deposited data

How the results depend on the processing

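The number of genes passing adjustment between homozygous and wildtype mice (53) was 6 without a filter on low values, 23 without a trend in the variance, and 4 when only wildtype and homozygous mice entered the fit, and it ran from 4 to 104 when single mice were left out. The p53 list members passing it (19) were 4 without a filter, 2 with only these 4 mice in the fit, and 2 to 11 with single mice left out. Genes passing the looser criterion (1519 of 13794 tested) were 894 of 9337 at a mean FPKM of at least 5, where fewer genes were tested. Their number also moved with single mice left out. Between homozygous and heterozygous mice, the named genes passing adjustment (1) ranged from 0 to 4 with single mice left out. Skeletal muscle markers higher by the looser criterion (23) ranged from 22 to 24. Signs turned with single mice left out for Trp53 (-0.13 to 0.17), Pcna (-0.00138 to 0.0769) and Xpc (-0.00973 to 0.15), all near 0. The 53 called genes kept their direction under each alternative in which they were tested. Most alternatives could not turn it, since both homozygous values of each called gene lay beyond both wildtype values. The cause of the changing counts was not tested. A median of 0.02 for replication genes became -0.03 and one of -0.14 for proteasome genes became 0.01 with quantile normalization. The alternative without genes listed at 0 was chosen after seeing the data. No paired analysis was possible because the animal numbers are not shared between the groups. Depth is unknown in FPKM, so values listed at 0 carry no limit.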

Other observations

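Several other groups of genes were measured and passed the adjusted test with 0 members in limma, while single members met the unadjusted criterion with at least a 1.5-fold difference. In the presentation of antigen by MHC class I, 3 of 13 tested genes were lower (4.45% of all tested genes) and 1 higher (6.56%) by that criterion. The lower ones were Tap1, the peptide transporter, with an FPKM of 22.9 and 17.6 in the wildtype and 11.3 and 10.97 in the homozygous mice, and the chaperones Pdia3 (453 and 438 against 216 and 285) and Calr (743 and 808 against 359 and 475). Calr also stands in the unfolded protein response list. The higher one was Nlrc5, a transcriptional activator of these genes, at 2.89 and 2.09 against 5.72 and 4.40. B2m, the light chain, had 2551 and 3031 in the wildtype mice, 8211 in homozygous mouse 47 and 3302 in mouse 49, so that a single mouse carried most of its difference. The list's median was -0.02 and turned to 0.04 with quantile normalization.

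Among epithelial genes, the tight junction gene Cldn4 had 189 and 208 in the wildtype, 160.3 and 135 in the heterozygous and 102 and 109 in the homozygous mice (log2 fold change -0.91, standard error 0.15, adjusted p = 0.0919 from limma). Of 15 tested heat shock chaperones, Cryab was higher by the unadjusted criterion (36.9 and 43.3 against 85.5 and 61.7), and it overlaps Hspb2 on the other strand. Of 17 clock genes this held for Hlf (2.74 and 4.49 against 7.05 and 6.24), of 19 interferon-stimulated genes for Usp18 (2.25 and 2.67 against 7.30 and 3.70), and of 9 nerve and Schwann cell markers for Sox10 (4.01 and 4.96 against 7.27 and 8.62). Of all tested genes, 6.56% were higher by that criterion, so a single member of lists of this size is no result about the list. Proteasome subunits differed little, with a median of -0.14 over 31 genes. The respiratory chain had a median of 0.06 over 32 genes, with 27 of them overlapping between the genotypes. Of all tested genes, 28.8% lay below and 21.3% above in both homozygous mice, and the others overlapped.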
